A study of Mus musculus with 18 samples.

Results

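The genes of the contractile actin and focal adhesion cytoskeleton were followed through 18 RNA sequencing libraries made from MC3T3-E1, a line of mouse pre-osteoblasts. Membership was by gene name: 40 genes for actins, actin cross-linkers, tropomyosins, other filament-binding proteins, non-muscle myosin II, focal adhesion proteins, RhoA and its kinases, and actin monomer turnover. Of the 40, 39 reached an FPKM (fragments per transcript length and sequencing depth) of at least 1 in 3 or more libraries, the level set for testing, among 11936 such genes of the 30452 in the table. The remaining member, Cnn1, was not tested.

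Cells seeded at 20000 per well stayed for 5 days on fibre membranes, which were cut as 15 mm discs, and polyadenylated RNA was sequenced. The membranes were PLLA/ZnO@Col (poly-L-lactic acid, a biodegradable polyester, with zinc oxide and collagen), PLLA/ZnO (with zinc oxide) and plain PLLA, and each was used with ultrasound for 10 min every day (+US) or without it (-US). The 6 groups were therefore PLLA/ZnO@Col +US, PLLA/ZnO@Col -US, PLLA/ZnO +US, PLLA/ZnO -US, PLLA +US and PLLA -US, with 3 libraries each. All 6 share the cell line and the gamma-irradiated membrane discs, none was grown on a membrane-free surface, and the series asks whether such piezoelectric membranes favour bone formation. No label states that the replicates are separate cultures, so the p-values speak of the spread between these libraries alone, and that spread may be technical.

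Stress fibres are bundles of actin filaments, cross-linked by alpha-actinin and filamin, decorated by tropomyosin and calponin, and pulled by non-muscle myosin II. They end at focal adhesions, where talin and vinculin link the filaments to integrins that hold the matrix, and kinases such as FAK signal. RhoA and its kinases switch myosin on, and the consumption of free actin releases MRTF, a coactivator that joins SRF at CArG boxes near many of these same genes. In osteoblast precursors this machinery is known to sense the stiffness of the substrate and mechanical load.

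The CArG box is the sequence that links filament assembly to transcription, so the promoter windows of the members were read for it. RefSeq windows (GRCm38.p6, 250 bases before to 50 after each annotated start) were read for 33 of the 40 members, matched by symbol. Rock1 was among the members left out of this reading, so the member counts below do not cover it. An exact CArG box is a pair of C, then 6 bases that are A or T, then a pair of G. This pattern, though not every single box, is the same on both strands. Exact boxes lay in 5 of the 40 windows of the 33 matched members, 1 each in 5 members, against 1.63% of all 32851 windows. Each is printed with 20 bases on either side, 5′ to 3′ on the strand of the gene, and capitals mark the box. The Actg1 box begins at base -90 from the start (chr11:120348556-120348605, minus strand), the Cnn2 box at -56 (chr10:79988524-79988573, plus), the Myl6 box at -50 (chr10:128493030-128493079, minus), the Myl9 box at -161 (chr2:156775283-156775332, plus) and the Vcl box at -227 (chr14:20929151-20929200, plus).
Actg1: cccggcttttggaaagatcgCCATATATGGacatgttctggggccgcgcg
Cnn2: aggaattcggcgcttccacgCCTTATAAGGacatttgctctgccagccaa
Myl6: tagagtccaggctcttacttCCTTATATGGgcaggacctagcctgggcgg
Myl9: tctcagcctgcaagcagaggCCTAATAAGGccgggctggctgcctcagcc
Vcl: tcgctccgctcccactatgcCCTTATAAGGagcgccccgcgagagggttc
With 1 of the inner 6 bases allowed to be G or C, 11 of the 40 member windows held a match, in 10 of 33 members, against 9.98% of all windows. Acta2, the smooth muscle alpha-actin and the third most abundant member in these cells, was among these 10, with matches beginning at -84 and -34, both in capitals in its 250 upstream bases (chr19:34255374-34255623, minus strand). Cnn1, the smooth muscle calponin and the least abundant member, had no match in its 250 upstream bases (chr9:22099003-22099252, plus strand), which says only that these letters are not in this window.
Acta2: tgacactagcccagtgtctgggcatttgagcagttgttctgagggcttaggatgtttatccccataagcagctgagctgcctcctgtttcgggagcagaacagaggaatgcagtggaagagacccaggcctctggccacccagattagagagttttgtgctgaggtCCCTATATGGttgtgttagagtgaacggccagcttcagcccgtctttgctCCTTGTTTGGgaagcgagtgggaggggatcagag
Cnn1: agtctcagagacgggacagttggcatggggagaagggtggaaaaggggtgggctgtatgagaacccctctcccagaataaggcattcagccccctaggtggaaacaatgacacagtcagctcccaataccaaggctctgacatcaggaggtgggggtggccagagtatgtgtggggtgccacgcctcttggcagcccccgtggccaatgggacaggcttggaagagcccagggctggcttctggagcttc
CATTCC, the core of the TEAD motif, lay on either strand in 14 of the 40 member windows and in 14.7% of all windows, and TATAAA lay in 3 of the 40 and in 13.6% of all windows. TATAAA can lie inside a CArG box and CATTCC can share its last C pair with one, and a match describes letters and not a bound site.

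Some libraries stood apart, and the results below are given with this in view. The total of the gene counts was 48307580 at the lowest and 78039543 at the highest. Reads from 4 Y-linked genes were at 3.05% of the median library in PLLA/ZnO@Col +US replicate 1, and at 1.64% and 2.43% in PLLA/ZnO@Col -US replicates 1 and 3. They were at 40.7% and 45.9% of it in PLLA/ZnO@Col +US replicates 2 and 3, at 18.7% in PLLA/ZnO +US replicate 3 and at 37.1% in PLLA +US replicate 3. In these 4 libraries the genes whose transcripts have the lowest GC content (below 45.2%) lay at a median log2 deviation of -0.54, -0.44, -0.76 and -0.33 from their mean over all libraries. PLLA/ZnO@Col -US replicate 2 stood at the other end, with the highest such deviation of the 18 (0.47) and the highest share of mitochondrial counts, 4.54%, while that share was 1.57% to 1.87% in the 4 libraries. The libraries fitted the label of an osteoblast lineage in part: Runx2, Col1a1 and Spp1 were at 6.22 to 9.54, 500.4 to 1165 and 637 to 3609 FPKM, while Sp7, Alpl, Bglap and Ibsp stayed under 1 FPKM. Of 7 smooth muscle markers in the table, Smtn was at 19.6 to 40.7 FPKM, Synpo2, Ldb3 and Des had medians of 1.46, 1.21 and 0.975 FPKM, and Smoc1, Myh11 and Myocd were at most 0.321, 0.0617 and 0.00713 FPKM. Myh11 and Myocd define the differentiated state, and the sum of the 7 lay between 24.8 and 43.6 FPKM on the collagen membranes and between 23.1 and 35.7 FPKM on the other membranes.

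The members were mostly abundant. Their median level was 85.9 FPKM, against 6.24 FPKM over all 11936 tested genes, and together they took between 2.45% and 3.86% of all counts of a library. Of the 40, 24 had a median of 50 FPKM or more, 17 of 100 or more and 3 of 500 or more. In order of level, the cytoplasmic actins Actb (median 1872 FPKM) and Actg1 (1754) came first, followed by Acta2 (695) and Cfl1 (426), the filament-severing cofilin. The ratio of Actb to Actg1 lay between 0.946 and 1.18 over the 18 libraries, so the first and second places were not separated. The lowest tested members were Rock1 (median 1.69 FPKM), Mylk (1.96), Tagln (2.12) and Ptk2 (5.55). In bulk RNA, fewer cells that express a gene and less of its RNA per cell cannot be told apart.

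**Figure D1:**
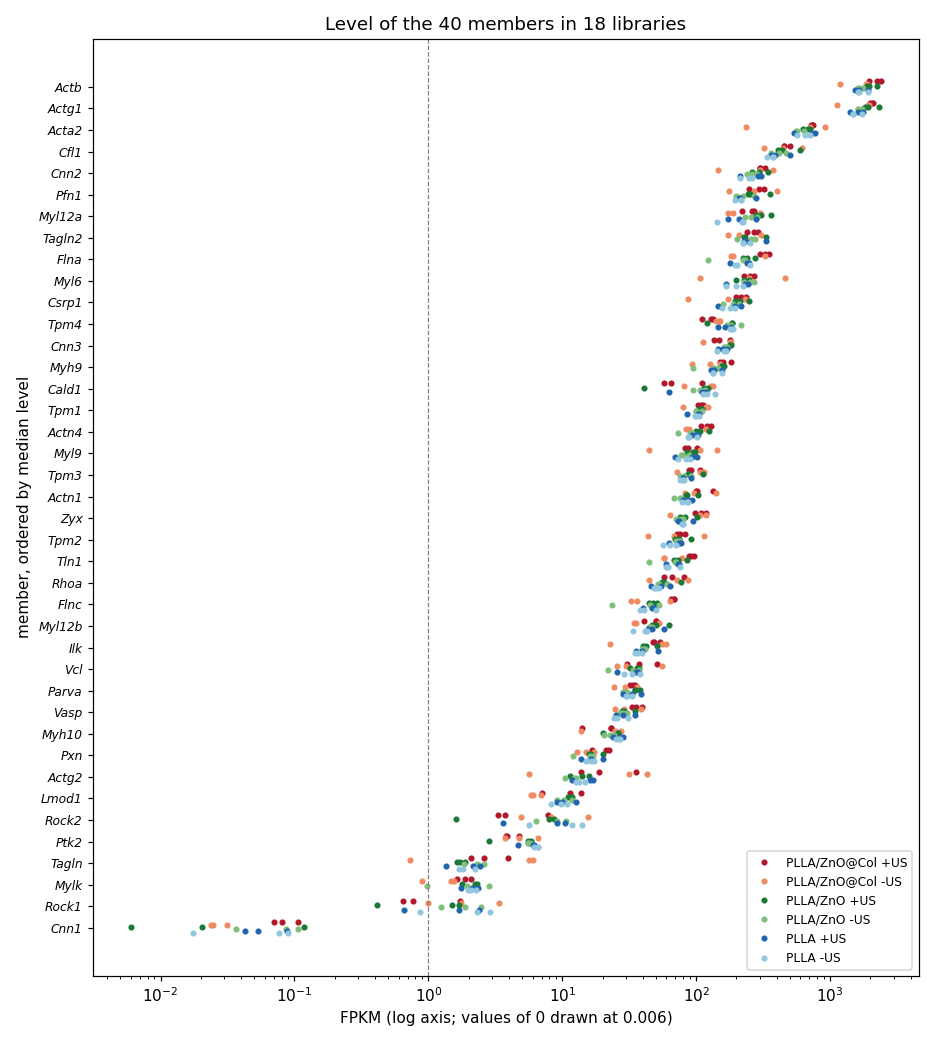
Levels of the 40 members in FPKM (log axis), 1 point per library, coloured by group and ordered by median; the dashed line marks 1 FPKM. Actb and Actg1 lie between 1130 and 2402 FPKM in all 18 libraries, 34 members have a median of 10 or more, and Cnn1 alone lies below the line throughout.

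The smooth muscle genes among the members were expressed at very unequal levels. Acta2 was at 236 to 912 FPKM, while Actg2, the smooth muscle gamma-actin, was at 5.67 to 42.7 FPKM and Tagln, the smooth muscle transgelin, at 0.723 to 6.04 FPKM. Cnn1 ranged from 0 to 0.118 FPKM with at most 23 counts in a library, and its 1 library without a count, PLLA/ZnO +US replicate 3, allows up to 3 counts in its total (counting error only). In FPKM, Acta2 exceeded Tagln by a factor of 125 to 421 (median 316). The non-muscle relatives of Tagln and Cnn1 were abundant: Tagln2 was at 174 to 331 FPKM, Cnn2 at 146 to 377 and Cnn3 at 112 to 181. Reads shared between Acta2 and Actg2, or between Actb and Actg1, whose coding sequences are near copies, could be split in ways the sources used here do not give, and Tagln overlaps Pcsk7 on the opposite strand in a table whose treatment of strand is not given.

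Members differed in how steady they were across libraries. The ratio of the highest to the lowest library ran from 1.55 (Tpm1) to 9.61 (Rock2) with a median of 2.30, against 2.26 over all tested genes. It was under 2 for 14 members and 3 or more for 9, with Rock2 (9.61), Tagln (8.35), Rock1 (8.15) and Actg2 (7.53) at the top. Within groups, the median coefficient of variation of the members was 10.5% in PLLA/ZnO@Col +US, 29.8% in PLLA/ZnO@Col -US, 12.9% in PLLA/ZnO +US, 9.59% in PLLA/ZnO -US, 17.0% in PLLA +US and 9.84% in PLLA -US. All tested genes had 28.2% in PLLA/ZnO@Col -US. In that group, replicate 2 was the lowest of all 18 libraries for 21 of the 39 tested members, with a median log2 deviation of -0.39 from each member's mean, and replicate 3 was the highest for 12.

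**Figure D2:**
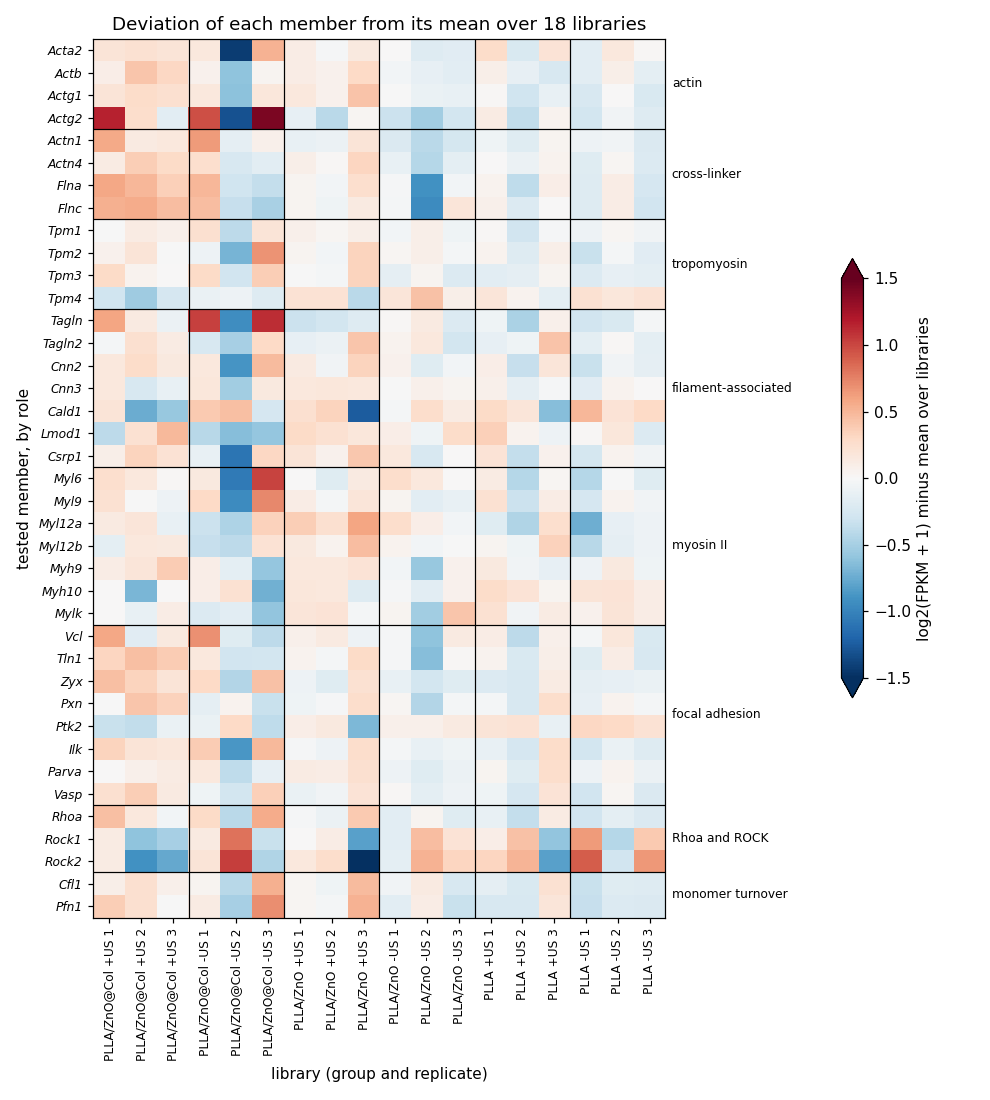
Deviation of each of the 39 tested members (rows, by role) from its own mean over the 18 libraries (columns), on the log2(FPKM + 1) scale; colours end at -1.5 and 1.5, and values beyond are drawn in the end colours. PLLA/ZnO@Col -US replicate 2 is the column in which most members lie below their mean, and Rock1 and Rock2 lie above their mean there.

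None of the 39 members differed among the 6 groups at an adjusted p under 0.05 (edgeR quasi-likelihood F-test, Benjamini-Hochberg over all 11936 genes), as was so for 0% of all tested genes. The smallest adjusted p of a member was 0.388, for Lmod1. At an unadjusted p under 0.05 there were 4 members of 39, Actn1, Actn4, Lmod1 and Tln1, which is 10.3%, against 10.8% of all tested genes. Without PLLA/ZnO@Col -US replicate 2, the same test called 3 members (Actg2, Tagln and Zyx) and 211 of all genes (1.77%), and DESeq2 with all libraries called 0 members and 506 genes. In each comparison of 2 groups or of ultrasound effects below, edgeR with all libraries called 0 of 39 members and 0% of all tested genes, and DESeq2 and limma called 0 members as well.

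The actins are the substance of the filament, and their levels with ultrasound on the 3 membranes come first. Acta2 (chromosome 19, 34241090 to 34255590) was at 729.7, 742 and 726 FPKM on PLLA/ZnO@Col +US, against 708, 236 and 912 FPKM on PLLA/ZnO@Col -US. On PLLA/ZnO it was at 685, 629 and 705 FPKM with ultrasound and 639, 556 and 564 FPKM without it, and on PLLA at 769, 540.5 and 731 FPKM with ultrasound and 570.0, 707 and 646 FPKM without it. The PLLA/ZnO@Col -US libraries held both the lowest and the highest value of the 18, and the groups with and without ultrasound overlapped on each membrane. The log2 change with ultrasound was 0.23 (SE 0.32) on PLLA/ZnO@Col, 0.20 (SE 0.32) on PLLA/ZnO and 0.05 (SE 0.32) on PLLA, each within 1 SE of 0.

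Actb (chromosome 5, 142903115 to 142906754) and Actg1 (chromosome 11, 120345690 to 120348542), the beta and gamma actins of non-muscle cells, moved in parallel between libraries. Actb was at 1939, 2402 and 2245 FPKM on PLLA/ZnO@Col +US, against 1881, 1190.3 and 1862 FPKM on PLLA/ZnO@Col -US, with no overlap. On PLLA/ZnO, Actb was at 1957, 1892 and 2224 FPKM with ultrasound and 1751, 1658 and 1616 FPKM without it, again with no overlap. On PLLA it was at 1914, 1658 and 1525 FPKM with ultrasound and 1622, 1925 and 1634 FPKM without it, and these overlapped. The change with ultrasound on PLLA/ZnO@Col had a log2 change of 0.41 (SE 0.19, edgeR quasi-likelihood F-test, unadjusted p = 0.0446, adjusted p = 0.525), and the changes on PLLA/ZnO and PLLA were 0.27 (SE 0.19) and -0.05 (SE 0.19).

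Actg1 was at 1977, 2104 and 2047 FPKM on PLLA/ZnO@Col +US, against 1933, 1130.0 and 1954 FPKM on PLLA/ZnO@Col -US, and at 1932, 1811 and 2328 FPKM on PLLA/ZnO +US, against 1727, 1626 and 1604 FPKM on PLLA/ZnO -US. Both pairs did not overlap, with log2 changes of 0.28 (SE 0.20) and 0.29 (SE 0.20) that did not pass (adjusted p = 0.531 and 0.937). On PLLA, Actg1 was at 1761, 1408 and 1613 FPKM with ultrasound and 1473, 1747 and 1487 FPKM without it, a log2 change of -0.01 (SE 0.20).

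Actg2 (chromosome 6, 83512905 to 83536265) was the actin that varied most. It was at 35.6, 18.9 and 13.7 FPKM on PLLA/ZnO@Col +US and 31.3, 5.67 and 42.7 FPKM on PLLA/ZnO@Col -US. The other groups were lower and narrower, at 14.2, 11.4 and 15.8 FPKM on PLLA/ZnO +US, 12.2, 10.5 and 12.7 on PLLA/ZnO -US, 16.9, 11.8 and 16.0 on PLLA +US and 12.7, 14.9 and 13.4 on PLLA -US. Its 3 highest libraries, at 35.6, 31.3 and 42.7 FPKM, were the 3 that nearly lacked Y-linked reads. Tagln had its 3 highest values, 3.93, 5.65 and 6.04 FPKM, in the same 3 libraries, which were also the highest 3 for Myl9 and Ilk. What part the makeup of these libraries has in these levels was not tested.

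Cross-linkers hold filaments in bundles and nets. Actn1 (chromosome 12, 80167547 to 80260371) and Actn4 (chromosome 7, 28893248 to 28962340) encode the non-muscle alpha-actinins, and Flna (chromosome X, 74223461 to 74249820) and Flnc encode filamins. Actn4 was at 106, 100.4 and 125 FPKM on PLLA/ZnO +US, against 92.4, 73.7 and 89.97 FPKM on PLLA/ZnO -US, a pair that did not overlap. It was at 108, 129 and 121 FPKM on PLLA/ZnO@Col +US and 119, 84.4 and 89.1 on PLLA/ZnO@Col -US, and at 100.3, 93.3 and 103 FPKM on PLLA +US and 87.7, 101 and 86.3 on PLLA -US, and both pairs overlapped. For ultrasound on PLLA/ZnO, Actn4 had a log2 change of 0.37 (SE 0.15, edgeR quasi-likelihood F-test, unadjusted p = 0.0304, adjusted p = 0.937), the smallest p of any member there.

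Actn1 was at 135, 99.3 and 101 FPKM on PLLA/ZnO@Col +US, 142, 82.6 and 95.8 on PLLA/ZnO@Col -US, 83.4, 85.4 and 103 on PLLA/ZnO +US, 77.5, 68.1 and 75.1 on PLLA/ZnO -US, 86.2, 79.9 and 93.0 on PLLA +US and 85.6, 87.4 and 77.9 on PLLA -US. Its highest 2 libraries, PLLA/ZnO@Col -US replicate 1 and PLLA/ZnO@Col +US replicate 1, both nearly lacked Y-linked reads, and all libraries of PLLA/ZnO@Col -US lay above those of PLLA/ZnO -US. Flna was at 348, 328 and 298 FPKM on PLLA/ZnO@Col +US, 328, 188 and 182 on PLLA/ZnO@Col -US, 238, 225 and 276 on PLLA/ZnO +US, 230.3, 123 and 225 on PLLA/ZnO -US, 242, 178 and 249.1 on PLLA +US and 204, 252 and 196 on PLLA -US. All 3 PLLA/ZnO@Col +US libraries exceeded every PLLA/ZnO +US library for Flna and for Flnc, with log2 changes of 0.43 (SE 0.26) and 0.52 (SE 0.27) that did not pass (adjusted p = 0.624 and 0.568).

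Tropomyosins lie along the filament and govern which proteins reach it. Tpm1 (chromosome 9, 67022590 to 67049267), the steadiest member, was at 103, 113 and 109 FPKM on PLLA/ZnO@Col +US, 122, 79.1 and 118 on PLLA/ZnO@Col -US, 109, 106 and 110.1 on PLLA/ZnO +US, 101, 110.5 and 99.4 on PLLA/ZnO -US, 105, 85.0 and 103 on PLLA +US and 98.5, 106 and 100.2 on PLLA -US. Its change with ultrasound lay between -0.09 (SE 0.15) on PLLA and 0.07 (SE 0.15) on PLLA/ZnO. Tpm2 (chromosome 4, 43514711 to 43523765) was at 75.5, 82.0 and 71.8 FPKM on PLLA/ZnO@Col +US, 68.2, 44.1 and 115 on PLLA/ZnO@Col -US, 74.0, 69.8 and 91.1 on PLLA/ZnO +US, 73.6, 76.1 and 70.6 on PLLA/ZnO -US, 74.9, 62.6 and 76.7 on PLLA +US and 56.7, 70.1 and 63.8 on PLLA -US. Tpm2 therefore had its lowest and its highest library in PLLA/ZnO@Col -US, as Acta2 did. Tpm4 ran the other way from the median member: it averaged 125 ± 12.6 FPKM on PLLA/ZnO@Col +US and 147 ± 6.35 FPKM on PLLA/ZnO@Col -US, with no overlap, against 164 ± 37.6 and 189 ± 24.5 FPKM on PLLA/ZnO +US and PLLA/ZnO -US (SD, n = 3 each). Its log2 change was -0.23 (SE 0.17) with ultrasound on PLLA/ZnO@Col, -0.33 (SE 0.17) with collagen without ultrasound and -0.36 (SE 0.17) with collagen under ultrasound, and none passed (adjusted p = 0.54, 0.444 and 0.538).

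Among the filament-associated proteins, Lmod1 stood out at the unadjusted level. Lmod1 (chromosome 1, 135324807 to 135368065) encodes leiomodin 1, which nucleates actin filaments in smooth muscle. It was at 7.05, 11.4 and 13.9 FPKM on PLLA/ZnO@Col +US, against 6.94, 5.83 and 6.09 FPKM on PLLA/ZnO@Col -US. On PLLA/ZnO it was at 11.9, 11.4 and 11.0 FPKM with ultrasound and 10.3, 9.15 and 11.8 FPKM without it, and on PLLA at 12.6, 9.99 and 9.06 FPKM with ultrasound and 9.71, 10.9 and 8.21 FPKM without it. The 3 PLLA/ZnO@Col -US libraries were thus the 3 lowest of all 18, and PLLA/ZnO@Col +US replicate 1, at 7.05 FPKM, was next to them. For ultrasound on PLLA/ZnO@Col Lmod1 had a log2 change of 0.77 (SE 0.22, edgeR quasi-likelihood F-test, unadjusted p = 0.00276, adjusted p = 0.525), and for collagen without ultrasound a log2 change of -0.70 (SE 0.22, edgeR quasi-likelihood F-test, unadjusted p = 0.00571, adjusted p = 0.176). Both comparisons share the PLLA/ZnO@Col -US libraries.

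The Lmod1 difference with ultrasound depended on which PLLA/ZnO@Col +US libraries were used. Without PLLA/ZnO@Col +US replicate 1 its log2 change was 1.03 and passed (edgeR, adjusted p = 0.0330), as 0.318% of all tested genes did. Without the 4 ultrasound libraries with part of the Y-linked reads, which leaves only replicate 1 in PLLA/ZnO@Col +US, it was 0.18 (adjusted p = 0.999). With an offset for transcript GC content, added after the data were seen, it was 0.57 (edgeR, adjusted p = 0.871). The 4 libraries lowest in low-GC transcripts were all +US. Here and below, the offset may therefore also take out part of a change with ultrasound, and the design cannot tell these apart. For the ultrasound effect on PLLA/ZnO@Col minus that on PLLA, Lmod1 had a log2 change of 0.66 (SE 0.30, edgeR quasi-likelihood F-test, unadjusted p = 0.0455, adjusted p = 0.9999). It was the only member with an unadjusted p under 0.05 in that difference, against 1.22% of all tested genes.

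Tagln (chromosome 9, 45929619 to 45936058) was at 3.93, 2.61 and 2.10 FPKM on PLLA/ZnO@Col +US, 5.65, 0.723 and 6.04 on PLLA/ZnO@Col -US, 1.63, 1.72 and 1.87 on PLLA/ZnO +US, 2.32, 2.59 and 1.85 on PLLA/ZnO -US, 2.15, 1.35 and 2.45 on PLLA +US and 1.69, 1.80 and 2.22 on PLLA -US. PLLA/ZnO@Col -US replicate 2 held the lowest value of all libraries and replicate 3 the highest, and no contrast of Tagln passed. Cnn1 (chromosome 9, 22099216 to 22109630) was at 0.0702, 0.0801 and 0.106 FPKM on PLLA/ZnO@Col +US, 0.0246, 0.0312 and 0.0239 on PLLA/ZnO@Col -US, 0.118, 0.0203 and 0 on PLLA/ZnO +US, 0.0862, 0.0365 and 0.106 on PLLA/ZnO -US, 0.0532, 0.0877 and 0.0424 on PLLA +US and 0.0901, 0.0175 and 0.0764 on PLLA -US, too few reads to compare. Cald1, the caldesmon that blocks myosin's access to filaments, averaged 78.0 ± 28.9 FPKM on PLLA/ZnO@Col +US, against 115 ± 28.7 FPKM on PLLA/ZnO@Col -US (SD, n = 3 each), a log2 change of -0.55 (SE 0.38) that did not pass (adjusted p = 0.53).

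Non-muscle myosin II pulls the filaments, and its light chains are where the ROCK kinases and myosin light chain kinase act. Myl9 (chromosome 2, 156775420 to 156781658), a regulatory light chain, was at 102, 86.6 and 82.2 FPKM on PLLA/ZnO@Col +US, 107, 44.5 and 144 on PLLA/ZnO@Col -US, 94.0, 85.1 and 98.8 on PLLA/ZnO +US, 89.2, 77.5 and 80.2 on PLLA/ZnO -US, 102, 69.1 and 93.6 on PLLA +US and 72.7, 89.8 and 83.8 on PLLA -US. Its lowest and highest libraries were again PLLA/ZnO@Col -US replicates 2 and 3. Myh9 (chromosome 15, 77760587 to 77842175), the IIA heavy chain, was at 151, 159.6 and 183 FPKM on PLLA/ZnO@Col +US, 151, 127 and 93.1 on PLLA/ZnO@Col -US, 157, 156 and 161 on PLLA/ZnO +US, 137, 94.2 and 147 on PLLA/ZnO -US, 156, 135 and 128 on PLLA +US and 133, 156 and 134 on PLLA -US. On PLLA/ZnO@Col and on PLLA/ZnO the Myh9 values with ultrasound all lay above those without it, with log2 changes of 0.41 (SE 0.20) and 0.33 (SE 0.20) (adjusted p = 0.525 and 0.937). Myl6, the essential light chain, ranged over 108 to 457 FPKM with both ends in PLLA/ZnO@Col -US. Mylk, the kinase of the light chains, was at only 0.891 to 2.82 FPKM.

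Myl12a (chromosome 17, 70993656 to 71002554), another regulatory light chain, was the member with the smallest p for zinc oxide under ultrasound. It was at 306, 281 and 359.5 FPKM on PLLA/ZnO +US, against 209, 174 and 282 FPKM on PLLA +US, and at 286, 255 and 230.5 FPKM on PLLA/ZnO -US, against 142, 219 and 226 FPKM on PLLA -US. The pair without ultrasound did not overlap, and in the pair with ultrasound PLLA +US replicate 3 exceeded the lowest PLLA/ZnO +US library by little. PLLA/ZnO@Col +US and PLLA/ZnO@Col -US were at 259.8, 270.1 and 219.7 and 189.8, 173 and 301 FPKM. With zinc oxide Myl12a had a log2 change of 0.57 (SE 0.22, edgeR quasi-likelihood F-test, unadjusted p = 0.0229, adjusted p = 1) under ultrasound and 0.41 (SE 0.22) without it. Its neighbour Myl12b, a near copy 3′ of it on chromosome 17, was at 33.6 to 62.8 FPKM, and 1 gene model of the table, Gm49909, spans both on the same strand, so their counts are uncertain.

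**Figure D3:**
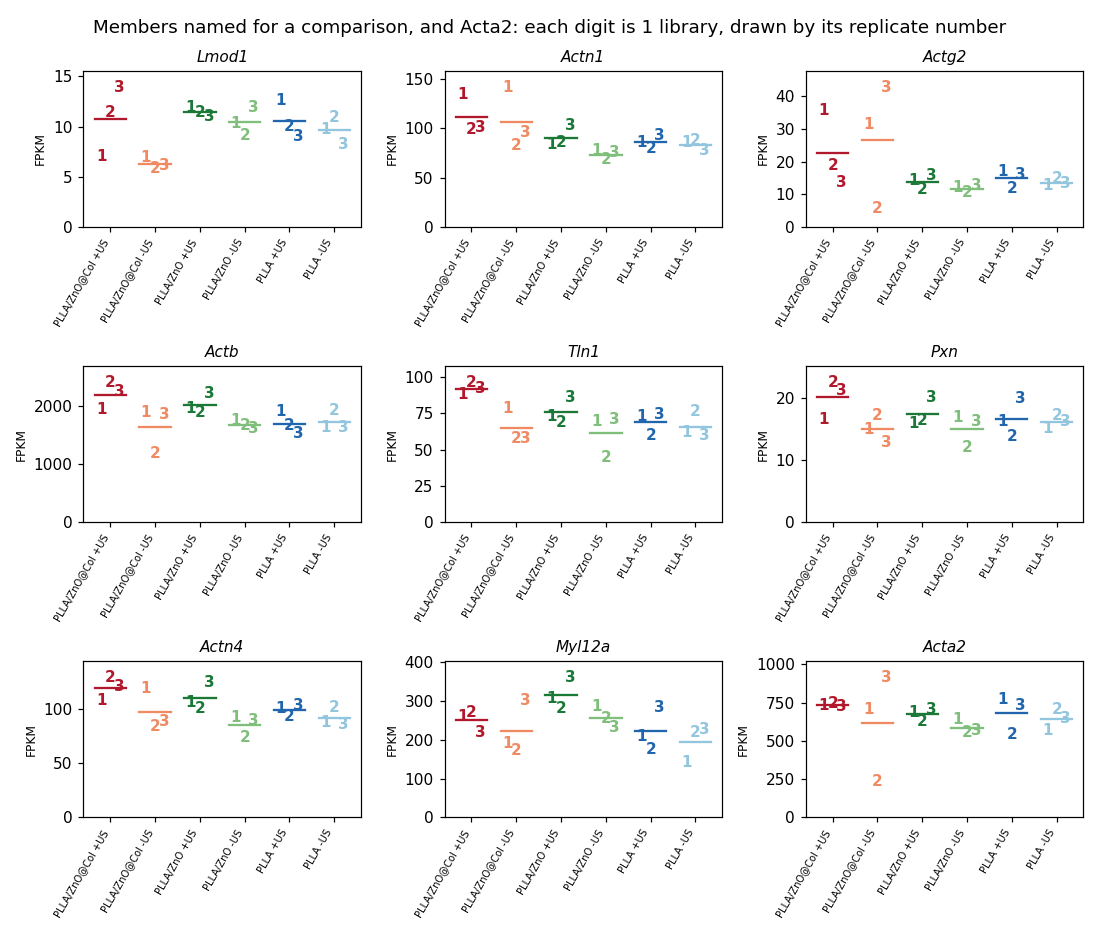
FPKM of Acta2 and of the 8 members with an unadjusted p under 0.05 in a comparison of 2 groups, by group; each digit is 1 library and gives its replicate number, and bars are group means. The 3 PLLA/ZnO@Col -US digits lie together at 5.83 to 6.94 FPKM for Lmod1, and spread from 5.67 to 42.7 FPKM for Actg2.

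At the focal adhesion, Tln1 (chromosome 4, 43531519 to 43562691) encodes talin 1, which opens integrins, and Pxn (chromosome 5, 115506676 to 115555987) the scaffold paxillin. Tln1 was at 87.7, 96.0 and 91.99 FPKM on PLLA/ZnO@Col +US, against 78.2, 57.6 and 57.8 FPKM on PLLA/ZnO@Col -US, with no overlap. It was at 73.0, 68.6 and 85.6 FPKM on PLLA/ZnO +US and 69.1, 44.6 and 70.8 on PLLA/ZnO -US, and at 72.9, 59.9 and 74.5 FPKM on PLLA +US and 61.9, 75.9 and 59.4 on PLLA -US, and these overlapped. For ultrasound on PLLA/ZnO@Col, Tln1 had a log2 change of 0.51 (SE 0.19, edgeR quasi-likelihood F-test, unadjusted p = 0.0167, adjusted p = 0.525). All 3 PLLA/ZnO@Col +US libraries also lay above every other library of the series for Tln1.

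Pxn was at 16.5, 22.5 and 21.3 FPKM on PLLA/ZnO@Col +US, 15.0, 17.2 and 12.9 on PLLA/ZnO@Col -US, 15.9, 16.4 and 20.2 on PLLA/ZnO +US, 17.0, 12.002 and 16.2 on PLLA/ZnO -US, 16.3, 13.8 and 20.05 on PLLA +US and 15.2, 17.3 and 16.3 on PLLA -US. Its 2 highest libraries were PLLA/ZnO@Col +US replicates 2 and 3, and replicate 1 lay within the PLLA/ZnO@Col -US values. For ultrasound on PLLA/ZnO@Col, Pxn had a log2 change of 0.42 (SE 0.17, edgeR quasi-likelihood F-test, unadjusted p = 0.0219, adjusted p = 0.525). With the GC offset, Tln1 was at 0.24 and Pxn at a smaller change of 0.09. The annotated transcripts of both are rich in GC (medians of 57.5% and 60.6%), and which of them the cells express was not tested.

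Vcl (chromosome 14, 20929398 to 21033676), vinculin, which reinforces the talin link under load, was at 51.3, 30.2 and 37.7 FPKM on PLLA/ZnO@Col +US, 55.3, 29.8 and 25.7 on PLLA/ZnO@Col -US, 36.1, 37.3 and 32.1 on PLLA/ZnO +US, 33.6, 22.0 and 37.6 on PLLA/ZnO -US, 36.7, 25.6 and 35.8 on PLLA +US and 33.3, 38.4 and 28.9 on PLLA -US. Its largest values came from the replicate 1 libraries of both PLLA/ZnO@Col groups, and the groups overlapped in every pair. Zyx (chromosome 6, 42349630 to 42360213), zyxin, a repair protein of strained filaments, was at 119, 109 and 98.6 FPKM on PLLA/ZnO@Col +US, 107, 63.5 and 118 on PLLA/ZnO@Col -US, 82.0, 75.8 and 102 on PLLA/ZnO +US, 79.8, 71.3 and 75.8 on PLLA/ZnO -US, 74.5, 72.9 and 94.0 on PLLA +US and 78.7, 79.5 and 80.4 on PLLA -US. For collagen, Zyx had a log2 change of 0.38 (SE 0.19) without ultrasound and 0.37 (SE 0.19) with it, and neither passed (adjusted p = 0.424 and 0.564). Ptk2 (chromosome 15, 73205102 to 73423212), the focal adhesion kinase FAK, was at 3.88, 3.79 and 4.73 FPKM on PLLA/ZnO@Col +US, 4.75, 6.58 and 3.72 on PLLA/ZnO@Col -US, 5.59, 5.83 and 2.86 on PLLA/ZnO +US, 5.51, 5.503 and 5.76 on PLLA/ZnO -US, 6.03, 6.16 and 4.70 on PLLA +US and 6.64, 6.60 and 6.18 on PLLA -US. Ptk2 had negative changes with ultrasound on all 3 membranes, -0.27 (SE 0.24) on PLLA/ZnO@Col, -0.23 (SE 0.24) on PLLA/ZnO and -0.23 (SE 0.24) on PLLA, and the groups did not overlap on PLLA only. Ilk, Parva and Vasp, which encode integrin-linked kinase, its partner parvin and a filament elongation factor, were at 22.7 to 59.7, 24.3 to 38.5 and 24.5 to 39.1 FPKM.

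Rhoa (chromosome 9, 108306129 to 108337934), the GTPase that switches contraction on, was at 80.6, 65.8 and 57.4 FPKM on PLLA/ZnO@Col +US, 72.0, 44.1 and 86.9 on PLLA/ZnO@Col -US, 58.0, 55.4 and 77.4 on PLLA/ZnO +US, 52.8, 60.7 and 51.9 on PLLA/ZnO -US, 54.3, 45.7 and 64.2 on PLLA +US and 48.3, 53.1 and 50.5 on PLLA -US. The Rhoa values overlapped between groups in all 7 pairs. Its kinases Rock1 and Rock2 had the most negative changes with ultrasound of all members, -0.94 (SE 0.63) and -0.93 (SE 0.60) on PLLA/ZnO@Col, and neither passed (adjusted p = 0.53 and 0.527). Their transcripts have the lowest GC content of the members, 43.1% and 41.4%, and no other tested member lies below 45.2%, the bound of the low-GC genes. In PLLA/ZnO@Col +US replicates 2 and 3, PLLA/ZnO +US replicate 3 and PLLA +US replicate 3, the 4 ultrasound libraries low in such transcripts, Rock1 was at 0.643, 0.771, 0.416 and 0.657 FPKM and Rock2 at 3.32, 3.73, 1.62 and 3.59 FPKM. These were the 4 lowest values of the 18 for both genes, whose whole ranges were 0.416 to 3.39 and 1.62 to 15.6 FPKM. With the GC offset, their changes on PLLA/ZnO@Col were -0.45 and -0.31, and the part that GC content has in them was not tested further. Rock2 exceeded Rock1 by a factor of 3.90 to 6.49 in every library.

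Cfl1 (chromosome 19, 5490455 to 5495201) was at 454, 505 and 452 FPKM on PLLA/ZnO@Col +US, 442, 321 and 621 on PLLA/ZnO@Col -US, 438, 409 and 597 on PLLA/ZnO +US, 415, 472 and 362 on PLLA/ZnO -US, 389.8, 365 and 503 on PLLA +US and 339.7, 377 and 373 on PLLA -US. Its groups overlapped in each comparison, and its changes with ultrasound were 0.02 (SE 0.21), 0.21 (SE 0.21) and 0.17 (SE 0.21) on PLLA/ZnO@Col, PLLA/ZnO and PLLA. Pfn1, profilin 1, which feeds monomers to growing ends, ranged over 176 to 405 FPKM.

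As a list, the members had no settled direction with ultrasound on PLLA. Of the 39, 25 had a log2 change above 0, with a median of 0.04, against 50.5% of all tested genes and a median of 0.00. Among the 829 tested genes with a mean of 50 FPKM or more, 596 were above 0, with a higher median of 0.10. With each library left out in turn the members' median lay between -0.05, without PLLA +US replicate 1, and 0.11, without PLLA +US replicate 2. With the GC offset it was -0.08 with 7 of 39 above 0. None had an unadjusted p under 0.05, against 0.436% of all tested genes. In FPKM, Myl12b lay above in all 3 PLLA +US libraries and Ptk2 below, which is 1 of 39 in each direction, against 4.99% and 5.8% of all tested genes.

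On PLLA/ZnO, 32 of the 39 members had a log2 change above 0 with ultrasound, with a median of 0.20, against 46.3% of all tested genes and a median of -0.03. Of the 829 tested genes with a mean of 50 FPKM or more, which are closer to the members in level, 550 were above 0. Their median was 0.08. The members' median was 0.12 without PLLA/ZnO +US replicate 3 and 0.07, with 27 of 39 above 0, with the GC offset. In FPKM, 8 members lay above without overlap (Actb, Actg1, Actn1, Actn4, Cnn3, Myl12b, Myh9 and Parva) and 0 below, against 6.82% and 4.62% of all tested genes. Actn4 alone had an unadjusted p under 0.05, and it was higher, so the counts were 1 higher and 0 lower, against 2.1% and 1.14% of all tested genes (3.24% in either direction). By role, 4 of 4 actins and 4 of 4 cross-linkers were above 0, with medians of 0.25 and 0.33, and 1 of the 3 genes Rhoa, Rock1 and Rock2, with a median of -0.50. The ultrasound effect on PLLA/ZnO minus that on PLLA had a median of 0.15 over the members (0.08 without PLLA/ZnO -US replicate 2), and 0 of 39 had an unadjusted p under 0.05, against 0.385% of all tested genes.

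On PLLA/ZnO@Col, 27 of the 39 members had a log2 change above 0 with ultrasound, with a median of 0.11, against 47.1% of all tested genes and a median of -0.03. Among the 829 abundant genes 444 were above 0, with a median of 0.02. In FPKM, 7 members lay above without overlap (Actb, Actg1, Flnc, Lmod1, Myh9, Mylk and Tln1) and Tpm4 lay below, against 5.28% and 5.74% of all tested genes. At an unadjusted p under 0.05, 4 members were higher (Actb, Lmod1, Tln1 and Pxn) and 0 lower, against 5.15% and 3.02% of all tested genes (8.18% in either direction). By role, 4 of 4 cross-linkers and 7 of 8 focal adhesion genes were above 0, with medians of 0.38 and 0.17, and 2 of 4 tropomyosins, with a median of -0.01. The median turned to -0.09 without PLLA/ZnO@Col -US replicate 2, to 0.33 without replicate 3 of that group, and to -0.02 with the GC offset, so its sign changed with these settings. Without the 3 libraries that nearly lacked Y-linked reads, which leaves PLLA/ZnO@Col -US with replicate 2 alone and assumes that it varies like the other groups, the median was 0.61 and 8 members passed (Acta2, Actb, Actg2, Tagln, Cnn2, Csrp1, Myl6 and Ilk), against 0.93% of all tested genes. In that fit 29 members had an unadjusted p under 0.05, against 40.2% of all tested genes. The ultrasound effect on PLLA/ZnO@Col minus that on PLLA/ZnO had a median of -0.04 over the members, and 0 of 39 had an unadjusted p under 0.05, against 2.2% of all tested genes.

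Averaged over the 3 membranes, ultrasound gave a log2 change above 0 in 30 of the 39 members, with a median of 0.13, against 51.3% of all tested genes and a median of 0.01. Among the 829 abundant genes 576 were above 0, with a median of 0.08. At an unadjusted p under 0.05, 5 members were higher (Actn4 0.24 (SE 0.09), Lmod1 0.34 (SE 0.12), Tln1 0.28 (SE 0.11), Myl12b 0.24 (SE 0.10) and Pxn 0.21 (SE 0.10)) and 0 lower, against 6.33% and 5.77% of all tested genes, and the adjusted p of each was 0.363. With the GC offset the median was -0.02 and 15 of 39 were above 0. Leaving out PLLA/ZnO@Col -US replicate 2 gave a median of 0.04, and leaving out replicate 3 of that group 0.21. Without the 3 libraries that nearly lacked Y-linked reads, which leaves PLLA/ZnO@Col -US with 1 library, 15 members passed with a median of 0.34, against 8.75% of all tested genes. In that fit 34 members had an unadjusted p under 0.05, against 47.3% of all tested genes.

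**Figure D4:**
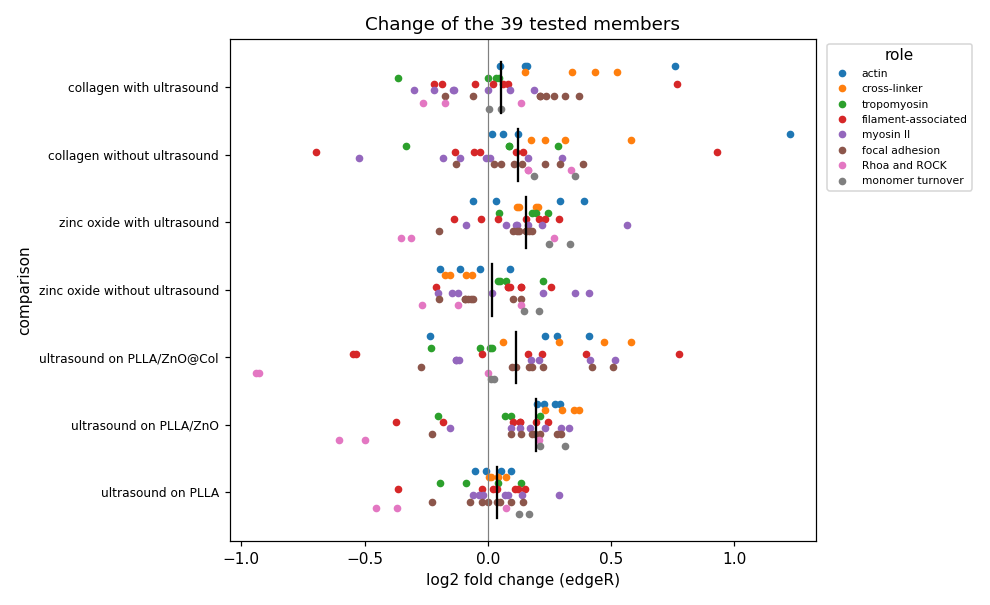
Log2 fold changes (edgeR) of the 39 tested members in 7 comparisons, 1 point per member, coloured by role; black bars are medians. The points lie mostly right of 0 for ultrasound on PLLA/ZnO and for zinc oxide with ultrasound, with 32 of 39 above 0 in each. Of the 829 tested genes with a mean of 50 FPKM or more, 550 and 656 were above 0 in these. The points are centred at 0.02 for zinc oxide without ultrasound.

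Zinc oxide in the membrane, without ultrasound, gave members on both sides of the level on plain PLLA: 20 of 39 had a log2 change above 0 on PLLA/ZnO -US relative to PLLA -US, with a median of 0.02, against 48.9% of all tested genes and a median of -0.01. Among the 829 abundant genes 626 were above 0, with a higher median of 0.14. The members' median lay between -0.04, without PLLA/ZnO -US replicate 1, and 0.06, without replicate 2 of that group. In FPKM, Tpm2, Myl6, Myl12a and Myl12b lay above without overlap and Actn1, Myh10 and Ptk2 below, which is 4 and 3 of 39, against 7.61% and 9.95% of all tested genes. None had an unadjusted p under 0.05, against 0.896% of all tested genes that were higher and 1.19% in either direction. Under ultrasound, 32 of 39 were above 0 on PLLA/ZnO +US relative to PLLA +US, with a median of 0.16. The share of all tested genes was 46.2%, with a median of -0.02. Among the 829 abundant genes 656 were above 0, with a median of 0.14. The members' median was 0.09 without PLLA +US replicate 2, 0.10 without PLLA/ZnO +US replicate 3 and 0.09 with the GC offset. Actg1, Tpm1, Cnn3 and Myh9 lay above without overlap and 0 members below, against 2.03% and 5.91% of all tested genes. Myl12a was the only member with an unadjusted p under 0.05, against 0.679% of all tested genes that were higher and 1.27% in either direction. The replicate numbers of these 6 libraries were also used as a block, a pairing that the labels do not give. With that block none passed (edgeR, smallest adjusted p 0.519), and 8 members had an unadjusted p under 0.05, against 8.25% of all tested genes. Myl12a, Pfn1, Rhoa, Actg1, Cnn3 and Csrp1 were higher, and Rock1 and Rock2 lower. These counts rest on that pairing. The comparisons of zinc oxide and of ultrasound share the PLLA/ZnO +US libraries, so they are not independent.

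Collagen was set against PLLA/ZnO. Without ultrasound, 29 of 39 members had a log2 change above 0 on PLLA/ZnO@Col -US relative to PLLA/ZnO -US, with a median of 0.12, against 55% of all tested genes and a median of 0.04. At an unadjusted p under 0.05, Actn1 and Actg2 were higher and Lmod1 lower, which is 2 and 1 of 39, against 7.77% and 5.17% of all tested genes. Actn1 had a log2 change of 0.58 (SE 0.19, edgeR quasi-likelihood F-test, unadjusted p = 0.00826, adjusted p = 0.207), and Actg2 a log2 change of 1.22 (SE 0.50, edgeR quasi-likelihood F-test, unadjusted p = 0.0264, adjusted p = 0.305). In FPKM, Actn1 lay above without overlap and Tpm4 and Lmod1 below, against 5.09% and 6.31% of all tested genes. By role, 4 of 4 cross-linkers and 7 of 8 focal adhesion genes were above 0, with medians of 0.27 and 0.12, and 3 of 7 myosin II genes, with a median of -0.01.

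These collagen values rested on which PLLA/ZnO@Col -US libraries were used. Without replicate 1, the median of the members was -0.01 and none passed, and with the GC offset it was 0.04 with 24 of 39 above 0. Without replicate 2, 9 members passed: Acta2 at 0.53, Actg2 at 1.72, Actn1 at 0.76, Tpm3 at 0.49, Tagln at 1.44, Myl9 at 0.67, Zyx at 0.63, Ilk at 0.58 and Rhoa at 0.59 on the log2 scale, with adjusted p values from 0.0107 for Actg2 to 0.0474 for Rhoa (edgeR), beside 1039 of all genes (8.7%). The 2 PLLA/ZnO@Col -US libraries left in that fit both nearly lack Y-linked reads. Without the 3 libraries of that kind, the remaining replicate 2 gave a median of -0.35, and Acta2, Tagln, Cnn3, Csrp1 and Myl6 passed with negative changes, of -1.34 for Acta2 and -1.65 for Tagln, against 1.39% of all tested genes, in a fit that assumes this 1 library to vary like the other groups. Acta2 and Tagln thus passed with opposite signs relative to PLLA/ZnO -US in libraries of 1 group. What separates these libraries was not tested.

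**Figure D5:**
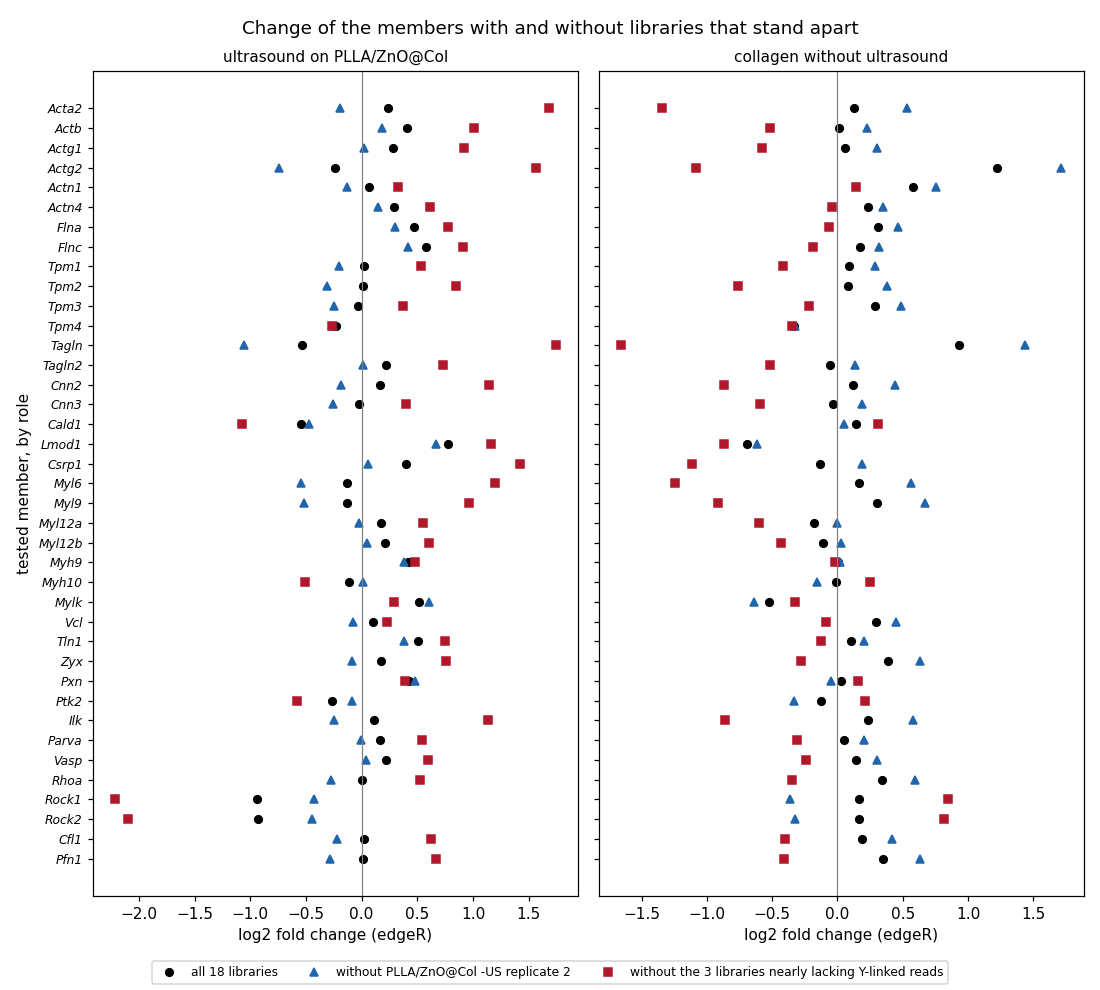
Log2 fold changes (edgeR) of the 39 tested members for ultrasound on PLLA/ZnO@Col (left panel) and collagen without ultrasound (right panel), with all 18 libraries (black circles), without PLLA/ZnO@Col -US replicate 2 (blue triangles) and without the 3 libraries that nearly lack Y-linked reads (red squares). Blue triangles rest on PLLA/ZnO@Col -US replicates 1 and 3 and red squares on replicate 2 of that group alone. That they lie on opposite sides of the black circles therefore largely follows from the split. Acta2 in the right panel lies at -1.34 (red) and 0.53 (blue).

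With ultrasound, 27 of 39 members had a log2 change above 0 on PLLA/ZnO@Col +US relative to PLLA/ZnO +US, with a median of 0.05, against 50.4% of all tested genes and a median of 0.00. In FPKM, Acta2, Flna, Flnc, Tagln and Tln1 lay above without overlap and Cnn3 and Myl12a below, which is 5 and 2 of 39, against 10.2% and 5.08% of all tested genes. With the GC offset the median was -0.02 and 17 of 39 were above 0, and with 1 library left out it lay between 0.03, without PLLA/ZnO +US replicate 1, and 0.17, without replicate 3 of that group. None of the 39 had an unadjusted p under 0.05 in the fit without that offset, against 6.92% of all tested genes that were higher, 2.51% that were lower and 9.43% in either direction. Acta2 was narrow in PLLA/ZnO@Col +US, at 733 ± 8.59 FPKM, against 673 ± 39.6 FPKM in PLLA/ZnO +US (SD, n = 3 each), a log2 change of 0.16 (SE 0.32) with an adjusted p of 0.888.

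Around the members, the regulators and partners of the same machinery were read from 3 lists, and none of their genes passed in any comparison (edgeR), with unadjusted counts as follows. Of 29 tested regulators of SRF, MRTF and small GTPases, 16 were above 0 with ultrasound on PLLA/ZnO@Col, with a median of 0.05, and 4 had an unadjusted p under 0.05 and were higher, against 5.15% of all tested genes. Srf, the transcription factor that binds CArG boxes, was at 33.7, 43.9 and 47.3 FPKM on PLLA/ZnO@Col +US, against 34.3, 25.7 and 31.0 FPKM on PLLA/ZnO@Col -US, and Mrtfa, its actin-sensing coactivator, at 17.8, 22.9 and 20.6 FPKM, against 15.9, 14.1 and 13.6 FPKM. For Srf the lowest PLLA/ZnO@Col +US library lay just under the highest PLLA/ZnO@Col -US library, and for Mrtfa the groups did not overlap. Srf had a log2 change of 0.45 (SE 0.16, edgeR quasi-likelihood F-test, unadjusted p = 0.0131, adjusted p = 0.525), and Mrtfa a log2 change of 0.49 (SE 0.17, edgeR quasi-likelihood F-test, unadjusted p = 0.0111, adjusted p = 0.525). Relative to PLLA/ZnO +US, at 30.3, 29.9 and 34.0 FPKM, Srf on PLLA/ZnO@Col +US had a log2 change of 0.44 (SE 0.16).

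Other regulators with an unadjusted p under 0.05 included exchange factors, which load small GTPases with GTP. For collagen, 23 of 29 were above 0 without ultrasound and 19 of 29 with it, with medians of 0.23 and 0.13, and 4 were higher without ultrasound and 4 higher and 2 lower with it at an unadjusted p under 0.05, against 7.77%, 6.92% and 2.51% of all tested genes. Arhgef2, released from microtubules to activate RhoA, was at 22.9, 18.5 and 23.7 FPKM on PLLA/ZnO@Col -US, against 15.9, 14.2 and 16.9 FPKM on PLLA/ZnO -US, with no overlap, and had a log2 change of 0.50 (SE 0.14, edgeR quasi-likelihood F-test, unadjusted p = 0.0027, adjusted p = 0.141). Its 3 highest libraries were those that nearly lacked Y-linked reads. Arhgef11, an exchange factor downstream of G proteins, had a log2 change of 0.60 (SE 0.18) with collagen under ultrasound, and Elk1, another partner of SRF, of 0.47 (SE 0.17) with collagen without ultrasound and 0.42 (SE 0.17) with ultrasound on PLLA/ZnO. Arhgap1, which switches small GTPases off, was at 0.35 (SE 0.14) in that last comparison.

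Among 32 tested actin assembly factors, 13 were above 0 with ultrasound on PLLA/ZnO@Col, with a median of -0.10. In each collagen comparison 12 were above 0, with medians of -0.08 without ultrasound and -0.07 with it. At an unadjusted p under 0.05 (edgeR), 3 were higher and 0 lower with ultrasound on PLLA/ZnO@Col, against 5.15% and 3.02% of all tested genes. With collagen without ultrasound 2 were higher and 1 lower, against 7.77% and 5.17%. With collagen under ultrasound 0 were higher and 1 lower, against 6.92% and 2.51%. Wdr1, a cofactor of cofilin, and Fhod1, a formin, had log2 changes of 0.34 (SE 0.13) and 0.31 (SE 0.13) with ultrasound on PLLA/ZnO@Col. Diaph1, a formin that RhoA activates, and Coro1c, a coronin, had 0.27 (SE 0.11) and 0.35 (SE 0.15) with ultrasound on PLLA/ZnO, and Coro1c had 0.38 (SE 0.15) with zinc oxide under ultrasound. The Arp2/3 subunits Arpc5 and Arpc2 had -0.41 (SE 0.15) with collagen without ultrasound and -0.32 (SE 0.11) with it, and Wasf1, which activates that complex, had 0.60 (SE 0.24) without ultrasound. The libraries that nearly lacked Y-linked reads were the 3 lowest for Arpc5 and the 3 highest for Wasf1.

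Other proteins of the adhesion plaque (32 tested) included the integrins, and 20 were above 0 with ultrasound on PLLA/ZnO@Col, with a median of 0.24, while 6 had an unadjusted p under 0.05 and were higher and 1 lower, against 5.15% and 3.02% of all tested genes. Itga11, the alpha subunit of a collagen-binding integrin, was at 19.2, 28.6 and 30.4 FPKM on PLLA/ZnO@Col +US, against 15.4, 14.0 and 11.9 FPKM on PLLA/ZnO@Col -US, and at 29.0, 27.3 and 27.5 FPKM on PLLA/ZnO +US, against 28.6, 16.1 and 39.2 FPKM on PLLA/ZnO -US. The PLLA/ZnO@Col -US libraries were the lowest of the 18, at most 15.4 FPKM, as they were for Lmod1. For ultrasound on PLLA/ZnO@Col, Itga11 had a log2 change of 0.92 (SE 0.26, edgeR quasi-likelihood F-test, unadjusted p = 0.00295, adjusted p = 0.525), and for collagen without ultrasound a log2 change of -0.99 (SE 0.26, edgeR quasi-likelihood F-test, unadjusted p = 0.00165, adjusted p = 0.123). Both comparisons share the PLLA/ZnO@Col -US libraries.

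Itgb5, the beta subunit of a vitronectin receptor, was at 85.7, 52.6 and 89.7 FPKM on PLLA/ZnO@Col -US, against 50.8, 46.0 and 53.2 FPKM on PLLA/ZnO -US, which overlapped, and had a log2 change of 0.64 (SE 0.20, edgeR quasi-likelihood F-test, unadjusted p = 0.00656, adjusted p = 0.184). Its 3 highest values, 95.7, 85.7 and 89.7 FPKM, were in the libraries that nearly lacked Y-linked reads. With collagen without ultrasound, 5 plaque proteins were higher and 1 lower at an unadjusted p under 0.05 (edgeR), against 7.77% and 5.17% of all tested genes. Under ultrasound 4 were higher and 0 lower, against 6.92% and 2.51%. With collagen under ultrasound, Itga5, the alpha subunit of the fibronectin receptor, was at 39.6, 42.2 and 40.8 FPKM on PLLA/ZnO@Col +US, against 26.5, 28.4 and 37.2 FPKM on PLLA/ZnO +US, and Bcar1, a scaffold that is phosphorylated when stretched, at 30.4, 35.2 and 35.5 FPKM, against 21.2, 22.9 and 26.3 FPKM. Neither pair overlapped, and the log2 changes were 0.45 (SE 0.14) and 0.56 (SE 0.15) (adjusted p = 0.415 and 0.403). Sorbs3, a vinculin-binding adaptor, had 0.49 (SE 0.14) with ultrasound on PLLA/ZnO@Col, and Parvb, a second parvin, 0.40 (SE 0.15) with ultrasound on PLLA/ZnO.

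The 3 lists are given for the other comparisons as counts and medians. With ultrasound on PLLA, 17 of 29 regulators, 13 of 32 assembly factors and 14 of 32 plaque proteins were above 0, with medians of 0.04, -0.06 and -0.04. None had an unadjusted p under 0.05 (edgeR), against 0.436% of all tested genes. With ultrasound on PLLA/ZnO, 20 of 29, 16 of 32 and 19 of 32 were above 0, with medians of 0.07, 0.01 and 0.07, and 2, 2 and 1 had an unadjusted p under 0.05 and were higher, against 2.1% of all tested genes. With zinc oxide without ultrasound, 9 of 29, 16 of 32 and 6 of 32 were above 0, with medians of -0.07, -0.00 and -0.14. With zinc oxide under ultrasound 14 of 29, 22 of 32 and 10 of 32 were, with medians of -0.02, 0.09 and -0.03. In these comparisons only Coro1c, under ultrasound, had an unadjusted p under 0.05 (edgeR). It was higher, as were 0.679% of all tested genes. For zinc oxide without ultrasound the share of all tested genes was 1.19% in either direction. For collagen, the plaque proteins had 17 of 32 above 0 without ultrasound and 20 of 32 with it, with medians of 0.03 and 0.10.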

How the data were processed

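Polyadenylated RNA of MC3T3-E1 cells was sequenced in 18 Illumina libraries, per the labels. The submitters' processing notes name cutadapt 1.9, FastQC and build GRCm38. How reads were aligned and counted, and how strand and shared reads were handled, is not given in the sources used here. In 1 table the authors deposited whole-number counts per gene, not normalized, and FPKM values, both named per the file headers. Levels are the deposited FPKM.

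Counts of the 11936 genes at an FPKM of 1 or more in at least 3 libraries were normalized by TMM and fitted with 1 mean per group in 1 model of all 18 libraries (12 residual degrees of freedom, common biological coefficient of variation 0.28). They were tested by the two-sided quasi-likelihood F-test of edgeR 4.0.16 in R 4.3.3, and a call was an adjusted p under 0.05 (Benjamini-Hochberg over all tested genes, no fold threshold). The SE is the log2 change divided by the root of F. The comparisons were +US against -US on each membrane, their average and their differences between membranes, and, at each ultrasound setting, PLLA/ZnO against PLLA (zinc oxide) and PLLA/ZnO@Col against PLLA/ZnO (collagen), besides any difference among the 6 groups. Groups were said not to overlap where every FPKM of one lay above every FPKM of the other. The test was checked on simulated counts. These were drawn without the differences in Y-linked reads and GC content between libraries, so the check does not cover those. Replicate numbers are from the labels, which do not say what a number marks. Same-numbered libraries deviated together (every correlation of deviations from the group means over 0.1) in 1 of 15 pairs of groups, PLLA/ZnO +US and PLLA +US, at 0.618 to 0.8. The main fit did not pair them, and a fit with the replicate number as a block is given beside it.

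Values in every library were given for 16 fixed members and, in each comparison of 2 groups, for up to 3 members with the smallest unadjusted p under 0.05. From each of 3 lists of related genes, up to 2 per comparison were named by the same threshold; Actb on PLLA/ZnO@Col, Tpm4, Cald1, Rock1, Rock2 and the members listed as not overlapping were named after their values were seen. The members and lists were chosen with earlier results of these data known. Transcript GC content came from GENCODE M21 transcripts of GRCm38 (87.1% of tested genes had a value, with all 39 tested members among them). It was the median over all protein-coding transcripts of a gene, short ones included, so it may differ from that of the expressed transcript. For Tln1 the median length of these transcripts was 836 bases. Promoter windows came from RefSeq, GRCm38.p6. Of the 40 members, 17 overlap a gene on the opposite strand in the table's coordinates, 12 a gene on the same strand and 16 none. Alternatives were DESeq2 1.42.0, limma 3.58.1 on log2(FPKM + 1) and log2(FPKM + 0.1), other scalings and filters, a replicate block, only the libraries compared, and libraries left out. All pairs of libraries differed by more than sampling noise (chi-square per degree of freedom of 15.9 or more).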

Additional observations from a re-analysis of the deposited data

How the results depend on the processing

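No member passed in any comparison under DESeq2, limma, other scalings or filters, the GC offset (added after the data were seen), the fit of only the libraries compared or the replicate block. Under the replicate block the median log2 change of the members was 0.02, 0.19 and 0.17 with ultrasound on PLLA, PLLA/ZnO and PLLA/ZnO@Col. The block changed no call. Over all groups, 21 of 45 same-numbered pairs had a correlation over 0.1 (median 0.0243) and 11 of 18 libraries were closest to one of their own number, a hint from the data and not from the design. For zinc oxide with ultrasound, whose same-numbered libraries deviated together, the block gave a median of 0.16 in the fit of all libraries. In the fit of the 6 compared, added after the data were seen, it gave 0.15.

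Leaving out 1 library in turn gave 0 to 1 called members with ultrasound on PLLA/ZnO@Col (0 to 38 of all genes), 0 to 9 with collagen without ultrasound (0 to 1039) and 0 to 3 among the 6 groups (0 to 211). The members' median then lay between -0.088 and 0.33, between -0.0071 and 0.30, and, for the ultrasound effect on PLLA/ZnO@Col minus that on PLLA/ZnO, between -0.27 and 0.071. Counts of all genes lay between 0 and 1 for ultrasound on PLLA/ZnO, zinc oxide with ultrasound, average ultrasound and both differences that involve PLLA/ZnO.

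DESeq2 called 5 genes for ultrasound on PLLA/ZnO, 3 on PLLA/ZnO@Col, 1 and 2 for zinc oxide without and with ultrasound, 407 and 47 for collagen without and with it, 1 for the average and 506 among the 6 groups. For collagen without ultrasound, limma on log2(FPKM + 0.1) called 1 gene and the GC offset 52. Without the 3 libraries nearly lacking Y-linked reads, the counts of members and of all genes were 8 and 111 for ultrasound on PLLA/ZnO@Col, 5 and 166 for collagen without ultrasound, 15 and 1044 for the average and 1 and 13 for PLLA/ZnO@Col minus PLLA, with 13 genes for PLLA/ZnO@Col minus PLLA/ZnO and 25 among the 6 groups. The medians were 0.61, -0.35, 0.34, 0.52 and 0.38 in the order of the 5 comparisons, and Actg2 for collagen without ultrasound was at -1.08. Without the 4 ultrasound libraries with part of the Y-linked reads, 83 and 1 genes were called for collagen without and with ultrasound and 6 among the 6 groups. These fits use fewer libraries, and the cause of the other differences was not tested. Depth limits Cnn1, with at most 23 counts in a library; the lowest count of a tested member in a library was 94, for Tagln.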
